A study of Homo sapiens with 11 samples.

Results

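Cells treated with siHOXA11-AS were compared with control cells in which HOXB13 was present, on 4 of the 11 arrays of the study. PC3 is a human prostate cancer cell line derived from a bone metastasis. The study transfected it with siNC, siHOXB13, siHOXA11 or siHOXA11-AS, collected RNA at 24 h or 48 h and hybridized it to human Clariom D arrays, 1 array per condition. A further 3 arrays at 48 h are titled shNC, shIBSP(1) and shIBSP(2). The 4 arrays compared were siHOXA11-AS at 24 h and 48 h, against siNC at 24 h and the array titled siHOXB13 at 48 h. No allele or agent other than the siRNA is given in the labels, which put the siRNA at 20 uM while the study's methods put it at 20 nM. Each siRNA combined 2 target sequences, according to the series description.

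The control arrays were chosen by their HOXB13 signal, so HOXB13 is given here as a description only. HOXB13 encodes a homeobox transcription factor of the prostate. Its log2 intensity at 24 h was 8.09 with siHOXB13 and 10.10 with siNC, lower with its own siRNA. At 48 h it was 10.36 on the array titled siHOXB13 and 8.52 on the array titled siNC, which goes against both titles. The array titled siHOXB13 at 48 h was therefore taken as the control, on the assumption that these labels were exchanged. The siHOXA11-AS arrays had 10.02 at 24 h and 11.21 at 48 h, both on the side of the arrays taken as control. The labels do not settle the exchange, so leading 48 h results are also given against the array titled siNC, and genes that differed from both are named first. These 2 arrays are called the candidate control arrays.

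HOXA11-AS is a long noncoding RNA transcribed from the strand opposite HOXA11 in the HOXA cluster, a set of homeobox genes that give body regions and their tissues positional identity. A siRNA guides Argonaute proteins to transcripts that pair with it, which are cut or silenced. Double-stranded RNA can also be sensed by RIG-I and related receptors, which switch on interferon and interferon-stimulated genes. The sequences that siHOXA11-AS was designed against are shown because they define the perturbation. The study lists the 3 below, each of 23 bases, and does not say which 2 were combined for the arrays. In RefSeq's GRCh38.p14, HOXA11-AS lies on chromosome 7 from 27185408 to 27189293. The position of each target within it was not analysed here, since no genome sequence was used.
Target (1): gagtgtatttccttttatcgtca
Target (2): cggctaacaaggagatttggtca
Target (3): ttcttgtttttccaaacttcaag

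The targeted transcript was read by 1 probe set and lay low on every array. HOXA11-AS had log2 intensities of 6.01 and 6.40 with siHOXA11-AS at 24 h and 48 h, against 6.30 and 6.54 on the control arrays. Both siHOXA11-AS values were lower than their controls, but the 48 h value was above the 24 h control. The mean log2 difference was −0.22 with a standard error of 0.24, and it did not pass the test (limma, adjusted p = 0.655). A loss of the target was not detectable with this probe set and number of arrays. HOXA11 was not analysed here, since no probe set carried that symbol alone. The arrays carried epithelial RNA, with EPCAM, an epithelial adhesion gene, at 15.35 to 16.29 on the 8 siRNA arrays. Endothelial CDH5, at most 3.44, was the dimmest of the endothelial, fibroblast and leukocyte markers measured. Endothelial PECAM1 lay at 4.38 to 5.44 on these arrays and the fibroblast gene COL1A1 at 7.99 to 8.86. Whether RNA of other cell types was present was not tested. Probe sets for background had medians of 3.26 to 3.30.

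Differences are log2 intensities with siHOXA11-AS minus those on the control array of the same time, over 16808 genes, the brighter part of 33616 named. At 24 h, 649 genes were at least 2-fold higher (3.86% of genes) and 303 at least 2-fold lower (1.80%). At 48 h, 1143 were higher (6.80%) and 752 lower (4.47%). Both times together left 242 genes that were at least 2-fold higher each time (1.44%) and 113 that were 2-fold lower (0.672%), while 13 were 2-fold different in opposite directions. Of the genes higher at 24 h, 37.3% were also higher at 48 h, and of those higher at 48 h, 21.2% were also higher at 24 h. For lower genes these shares were 37.3% and 15%. Without regard to size, 66.1% of genes had the same sign at both times, 41.6% being higher at both and 24.5% lower at both. The differences at 24 h and 48 h, which share no array, had a Pearson r of 0.478 and a Spearman rho of 0.441 across genes, which are not independent replicates. Against the array titled siNC at 48 h, the Pearson r was 0.21 and 56.7% of genes had the same sign. The median difference of all genes was 0.11 at 24 h and 0.10 at 48 h, and centring each array on its median moved these to −0.04 and −0.02.

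**Figure D1:**
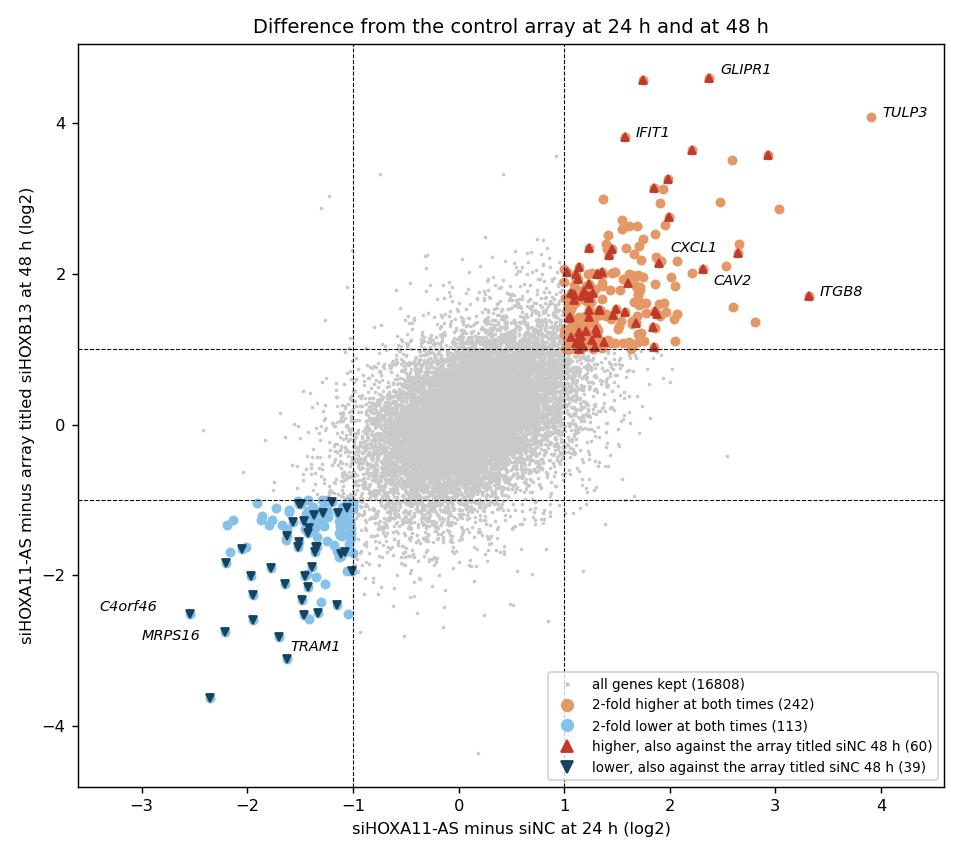
Log2 difference between siHOXA11-AS and the control array at 24 h (x axis) and 48 h (y axis), 1 point per gene, with dashed lines at 2-fold. The 242 genes at upper right were higher and the 113 at lower left were lower at both times, and triangles mark the 60 and 39 that were also 2-fold different in that direction from the array titled siNC at 48 h.

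With no replicate array, limma took the disagreement between 24 h and 48 h as its error, which leaves 1 residual degree of freedom. It drew each gene's error towards a value shared by all genes, with 7.64 prior degrees of freedom. The standard errors given here therefore rest mostly on that shared value and less on the gene's own disagreement. No source states that the 24 h and 48 h arrays were separate experiments, so the spread between the times may be technical, and it also holds any change of an effect with time. At an adjusted p under 0.05, 148 genes were called higher (0.881%) and 67 lower (0.399%), and all of these lay among the 355 genes that were 2-fold different at both times. Against the array titled siNC at 48 h, limma called 0 genes higher and 0 lower, with 1315 and 495 at an unadjusted p under 0.05. After centring on the median it called 491 higher and 558 lower, so the share of higher calls also rests on the scaling. Verbs of change below are used for genes that limma called. An RNA pool cannot tell fewer cells with a transcript from less of it per cell.

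The choice of the 48 h control split the 355 genes. Of the 242 higher genes, 188 were also above the array titled siNC at 48 h and 60 were at least 2-fold above it (0.357% of all genes met all 3 conditions). Of the 113 lower genes, 88 were also below it and 39 at least 2-fold below it (0.232%), while 1 was 2-fold above it. The siHOXA11-AS array was the highest of the 4 siRNA arrays at both times for 141 of the 242 genes, against 11.3% of all genes, and the lowest for 67 of the 113, against 6.43%. The control array was the lowest of the 4 at both times for 169 of the 242, against 14.6%, and the highest for 63 of the 113, against 7.60%. These shares share arrays with the choice of genes and are descriptions only.

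A group of 39 genes was at least 2-fold lower with siHOXA11-AS at both times whichever 48 h array served as control. For 33 of them, both siHOXA11-AS arrays lay below all of the other 6 siRNA arrays, against 3.74% of all genes. The 39 were chosen on arrays that are among these 6, so this share is a description only. The 39 included TRAM1 and MMGT1 of the endoplasmic reticulum (ER), MRPS16 and SLC25A13 of mitochondria, and the RNA-binding PTBP3. These are single genes, and such themes were not counted against all genes.

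TRAM1, which encodes a membrane protein beside the ER translocon through which new secretory proteins enter, had log2 intensities of 18.09 and 16.79 with siHOXA11-AS at 24 h and 48 h, against 19.79 and 19.61 on the control arrays. All 6 siRNA arrays without siHOXA11-AS lay between 19.48 and 19.92, near the upper end of the scale, where several genes share each array's highest value. TRAM1 fell by 2.26 on the log2 scale over both times (SE 0.31, limma adjusted p = 0.0203), a size that may be a lower bound so near the top of the scale, which was not tested, and its difference from the array titled siNC at 48 h was −2.92. Of the 23 ER translocon and signal peptide genes measured, TRAM1 was the 1 that was 2-fold lower at both times and none was 2-fold higher, where 0.672% and 1.44% of all genes were. The list's median difference was 0.41 (24 h) and 0.24 (48 h), so TRAM1 differed in sign from the list.

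MRPS16, a protein of the small mitochondrial ribosomal subunit, had 11.90 and 11.66 with siHOXA11-AS, against 14.11 and 14.42 on the control arrays. The 2 groups lay more than 2 log2 units apart at each time, and MRPS16 fell by 2.49 (SE 0.26, limma adjusted p = 0.0129). SLC25A13, the mitochondrial aspartate and glutamate carrier, had 8.77 and 8.50 with siHOXA11-AS, against 10.97 and 10.33 on the control arrays, and fell by 2.02 (SE 0.25, limma adjusted p = 0.0161). Both genes were also lower than on the array titled siNC at 48 h, with differences of −2.30 for MRPS16 and −1.76 for SLC25A13.

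C4orf46, a small gene of little known function, had 8.01 and 7.49 with siHOXA11-AS, against 10.55 and 10.00 on the control arrays, and its log2 differences of −2.54 and −2.52 were nearly the same at both times. MARVELD1, a MARVEL domain membrane protein, had 5.51 and 5.46 with siHOXA11-AS, against 7.47 and 7.46 on the control arrays. It lay at 7.30 to 7.78 on the 6 siRNA arrays without siHOXA11-AS. MMGT1, a subunit of the ER membrane protein complex, had 10.78 and 10.14 with siHOXA11-AS, against 12.72 and 12.74 on the control arrays. All of these fell (limma adjusted p = 0.00972 for C4orf46, 0.0161 for MARVELD1 and 0.0161 for MMGT1).

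PTBP3, an RNA-binding protein related to the splicing regulator PTB, had 13.08 and 12.51 with siHOXA11-AS, against 14.86 and 14.42 on the control arrays. siHOXA11 at 48 h, at 12.99, fell between the siHOXA11-AS values, so PTBP3 did not separate siHOXA11-AS from all other arrays. SAV1, the scaffold of the Hippo kinases that restrain YAP, had 10.02 and 11.07 with siHOXA11-AS, against 12.07 and 12.73 on the control arrays, and the other 6 siRNA arrays all lay at 12.07 or above. TNFRSF10B, the TRAIL receptor DR5, had 7.12 and 7.37 with siHOXA11-AS, against 8.41 and 8.54 on the control arrays. PTBP3 and SAV1 fell (limma adjusted p = 0.0194 and 0.0203), and the mean difference of TNFRSF10B was −1.23 (adjusted p = 0.0536).

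NUS1, a subunit of the prenyltransferase that makes dolichol for N-glycosylation, had 11.31 and 10.88 with siHOXA11-AS, against 12.83 and 12.51 on the control arrays. Its pseudogene NUS1P3 had 7.80 and 7.12 with siHOXA11-AS, against 9.43 and 10.23 on the control arrays. Both fell (limma adjusted p = 0.0261 for NUS1 and 0.0233 for NUS1P3), but a gene and its near-identical copy may share probes, so they are not separate measurements. The same holds for BZW1P2, a pseudogene of the translation regulator BZW1, for FAM3C2P, PNRC2P1 and RDXP2. Among the 25 dolichol and N-glycosylation genes measured, NUS1 was 2-fold lower and ALG14, which acts early in the building of the lipid-linked glycan, was 2-fold higher at both times. Of all genes, 0.672% were 2-fold lower and 1.44% 2-fold higher at both times. NUS1 was also lower than on the array titled siNC at 48 h, at −2.53, whereas ALG14 had 0.19 against that array and was not called by limma (adjusted p = 0.0541).

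**Figure D2:**
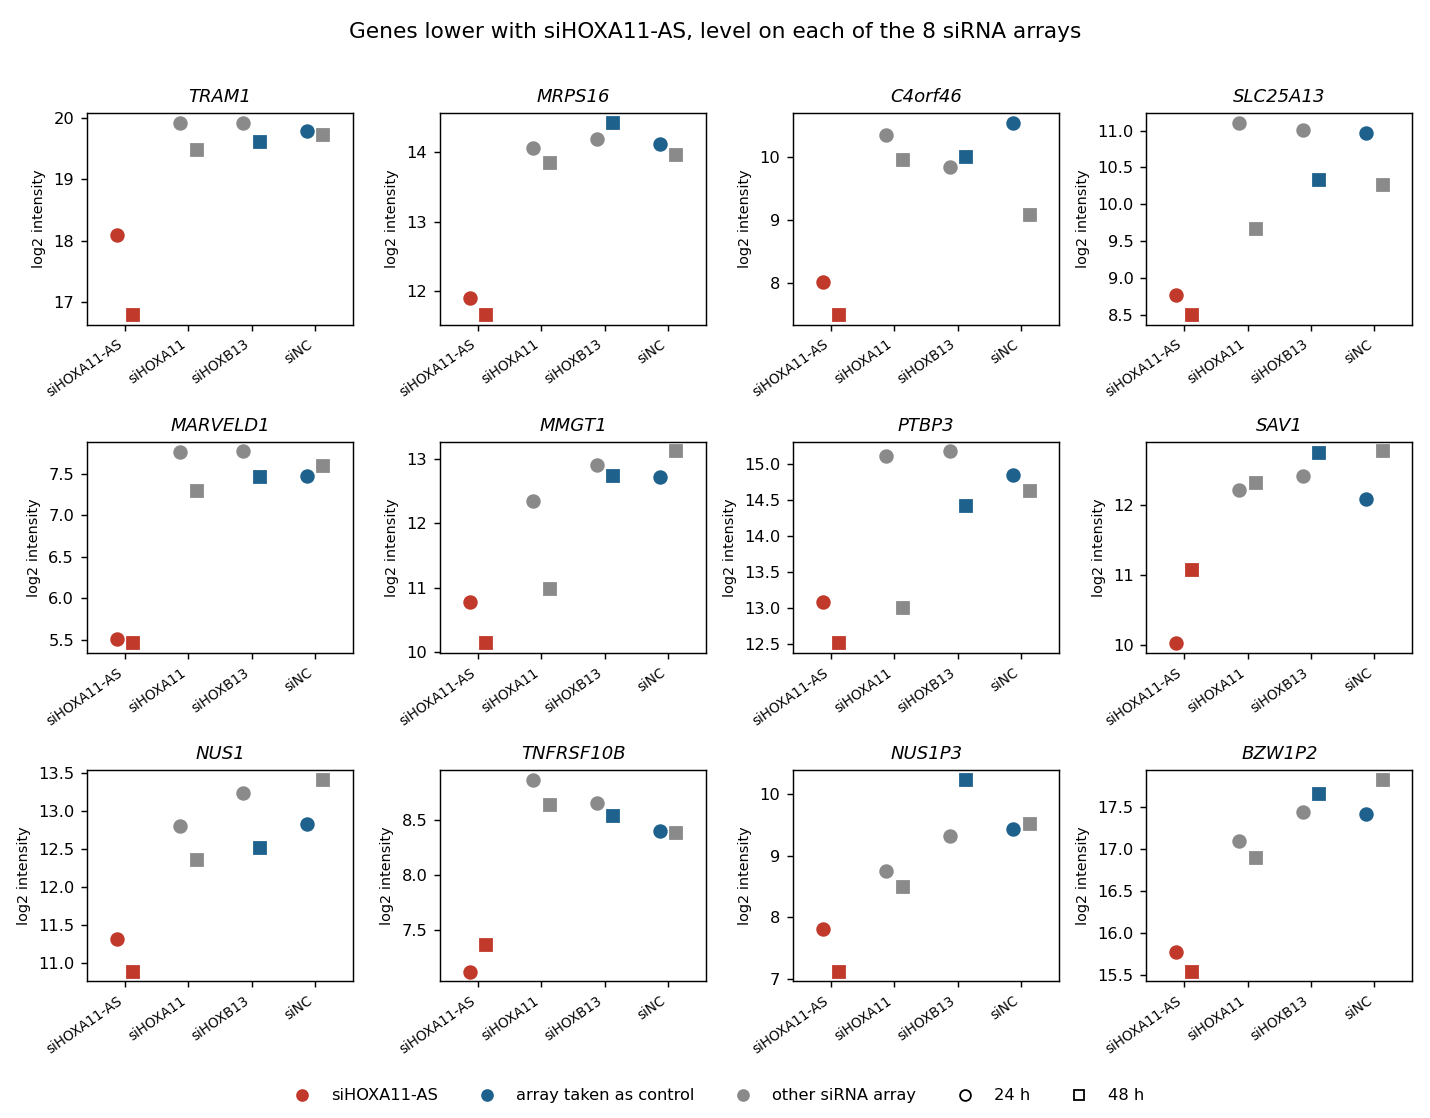
Log2 intensity of 12 lower genes on the 8 siRNA arrays, siHOXA11-AS in red, the arrays taken as control in blue and the others in grey, with circles for 24 h and squares for 48 h. The vertical scale differs between panels and does not start at 0; for TRAM1 the siHOXA11-AS arrays read 18.09 and 16.79 and all others at least 19.48.

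Pseudogenes were frequent among the lower genes. RefSeq types 60 of the 113 lower genes as pseudogenes (53.1%), against 3 of the 242 higher genes (1.24%) and 22.7% of all genes kept. With the array titled siNC at 48 h required as well, pseudogenes made up 6 of 39 lower genes (15.4%). The ribosomal protein pseudogene RPL36AP26 had 9.46 and 11.30 with siHOXA11-AS, against 11.48 and 12.93 on the control arrays, but 11.18 on the array titled siNC at 48 h. RPS4XP3 likewise had log2 differences of −1.64 and −1.53, but 0.18 against the array titled siNC. For both, the control array was the highest of the 4 siRNA arrays at each time, so their lower levels with siHOXA11-AS rest on the assumed exchange at 48 h.

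Genes that were higher with siHOXA11-AS whichever array served as control included membrane, signalling and chemokine genes. Of the 60, siHOXA11-AS was the highest of the 4 siRNA arrays at both times for 52, against 11.3% of all genes. Both siHOXA11-AS arrays lay above all the other 6 for 48, against 6.46% of all genes. The 60 were chosen on arrays that are among these 6, so these shares are descriptions only. In all, 43 of the 60 were called by limma, which called 0.881% of all genes higher. By RefSeq, 58 were protein-coding, as were 68.1% of all genes kept.

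CAV2, which forms caveolae with caveolin-1, had log2 intensities of 11.62 and 10.46 with siHOXA11-AS at 24 h and 48 h, against 9.31 and 8.39 on the control arrays. The other 6 siRNA arrays ranged up to 9.40, below both siHOXA11-AS values, and CAV2 rose by 2.19 (SE 0.25, limma adjusted p = 0.0161). TMEM64, a transmembrane protein, had 11.35 and 11.03 with siHOXA11-AS, against 8.71 and 8.74 on the control arrays. It rose by 2.46 (SE 0.25, limma adjusted p = 0.0116). The integrin subunit ITGB8, which with the αv chain binds and activates latent TGF-β, had 11.15 and 10.54 with siHOXA11-AS, against 7.83 and 8.82 on the control arrays. It rose by 2.52 (SE 0.36, limma adjusted p = 0.0226). It was the 1 gene of 14 integrin subunits measured that was 2-fold higher at both times, where 1.44% of all genes were. On the array titled shNC at 48 h, ITGB8 had 11.75, above both siHOXA11-AS values.

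ADAMTS1, a secreted metalloprotease, had 9.96 and 10.14 with siHOXA11-AS, against 7.97 and 7.38 on the control arrays. GLIPR1, a p53-responsive secreted protein gene, had 15.06 and 14.79 with siHOXA11-AS, against 12.69 and 10.18 on the control arrays, which is 5.18-fold at 24 h and 24.4-fold at 48 h. Its 48 h fold depended on the control, since the log2 difference was 4.61 from the array titled siHOXB13 and 2.35 from the array titled siNC. PPIP5K2, an inositol pyrophosphate kinase, had 12.02 and 12.02 with siHOXA11-AS, against 9.10 and 8.44 on the control arrays. NIPA1, a magnesium transporter, had log2 differences of 1.99 and 3.27, and 1.45 against the array titled siNC at 48 h. These genes rose (limma adjusted p = 0.0161 for ADAMTS1 and NIPA1, 0.019 for GLIPR1 and 0.00591 for PPIP5K2). At 24 h, however, GLIPR1 and PPIP5K2 had 14.69 and 11.83 with siHOXA11, and NIPA1 had 10.40 with siHOXB13, near their siHOXA11-AS values. For GLIPR1, PPIP5K2 and NIPA1 the control array was the lowest of the 4 siRNA arrays at both times, so at 24 h siNC stood apart.

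A second set of higher genes was low on the 2 control arrays alone. TULP3, which carries receptors into primary cilia, had 12.58 and 12.84 with siHOXA11-AS, against 8.67 and 8.76 on the control arrays, the largest smaller-of-2 difference among the 242. On the other 4 siRNA arrays TULP3 lay at 11.36 to 12.47, so siHOXA11-AS stood near them and the control arrays stood apart. LCLAT1, an acyltransferase of cardiolipin and phosphatidylinositol, had 13.90 and 13.77 with siHOXA11-AS, against 10.86 and 10.90 on the control arrays, and 13.72 on the array titled siNC at 48 h. GNPNAT1, an enzyme of UDP-GlcNAc synthesis, had 16.97 and 16.96 with siHOXA11-AS, against 14.38 and 13.44 on the control arrays. AREL1, a ubiquitin ligase that restrains apoptosis, and TBC1D5, a regulator of Rab7, followed the same pattern. ELL2, a transcription elongation factor, and GNPNAT1 followed it in part. With siHOXA11 at 24 h they had 13.85 and 15.56, nearer to siNC (13.05 and 14.38) than to siHOXA11-AS (15.12 and 16.97). The differences of AREL1, TBC1D5 and ELL2 from the array titled siNC at 48 h were 0.64, −0.07 and 0.30, against 2.95, 2.01 and 2.18 from the array titled siHOXB13.

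**Figure D3:**
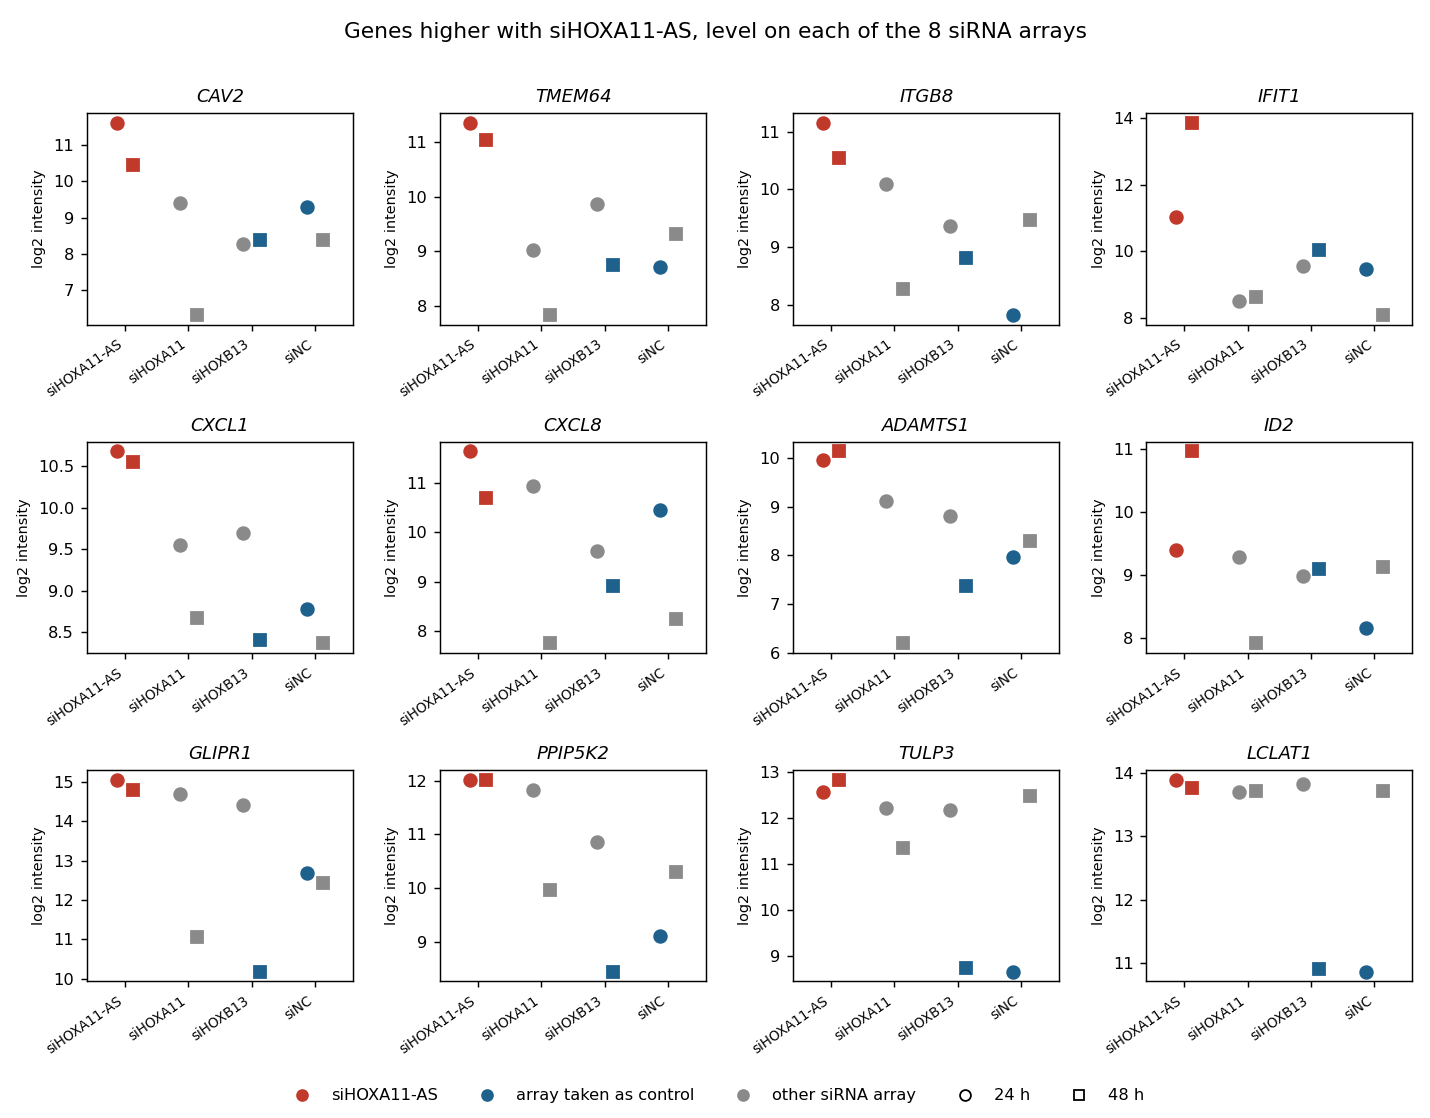
Log2 intensity of 12 higher genes on the 8 siRNA arrays, coloured as for the lower genes, with circles for 24 h and squares for 48 h and a separate scale per panel that does not start at 0. CAV2, TMEM64 and CXCL1 were highest on both siHOXA11-AS arrays, whereas TULP3 and LCLAT1 were low on the 2 control arrays only.

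Most of the membrane-associated genes that the study itself listed from these arrays behaved like the second set. Set against the array titled siHOXB13 at 48 h, 70 of 71 genes passed 2-fold higher (6.80% of all genes did), with a median of 1.79. Set against the array titled siNC, 3 passed, with a median of −0.22. At 24 h the median was 0.95. At both times 70 were higher (41.6% of all genes were) and 34 at least 2-fold higher (1.44%). Of these 34, 3 were also 2-fold higher than the array titled siNC at 48 h, where 0.357% of all genes met all 3 conditions. These 3 included GLIPR1 and NIPA1. For 60 of the 71 the control array was the lowest of the 4 at both times, against 14.6% of all genes. Since the study chose this list on these samples, it is not independent evidence of a direction. PODXL, the sialomucin podocalyxin, and MUC13, a transmembrane mucin, showed the dependence, with 2.35 and 1.89 at 48 h against the array titled siHOXB13 and −0.61 and −0.22 against the array titled siNC.

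Interferon-stimulated genes were higher with siHOXA11-AS at 48 h against either candidate control array, and differed little as a list at 24 h. Of the 51 measured, 33 were at least 2-fold higher at 48 h and none 2-fold lower, where 6.80% and 4.47% of all genes were. At 24 h, 3 were 2-fold higher and 3 lower, where 3.86% and 1.80% of all genes were. Against each of the 2 candidate arrays at 48 h, 32 of the 51 were 2-fold higher, where 1.36% of all genes were. The siHOXA11-AS array was the highest of the 4 at 48 h for 48 of the 51, against 32.0% of all genes. With siHOXA11-AS, the log2 intensity of the list had medians of 8.0 (24 h) and 9.50 (48 h), against 8.0 and 8.19 on the control arrays and 7.76 on the array titled siNC at 48 h. The 48 h arrays titled shNC, shIBSP(1) and shIBSP(2), outside this comparison, had higher medians of 13.28, 12.22 and 11.84. High levels of this list were thus not particular to siHOXA11-AS, and the cause was not tested. The median difference was 0.10 at 24 h, which turned to −0.05 after centring on the median, and 1.35 at 48 h. The difference between the times was not tested, as each time has 1 array. Leukocyte markers did not move with the list. Of the 3 of 5 measured, none was higher at both times, where 41.6% of all genes were, and their median differences were 0.15 and −0.63. On the 8 siRNA arrays these 3 lay at log2 6.22 to 7.09 (PTPRC), 5.65 to 6.59 (ITGAX) and 4.58 to 5.88 (CD3E). The monocyte gene CD14, below the level filter, was at 4.67 or less.

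IFIT1, which binds viral RNA that lacks a methylated cap, had 11.05 and 13.85 with siHOXA11-AS, against 9.47 and 10.04 on the control arrays. Both siHOXA11-AS arrays lay above the other 6, which reached 10.04, and IFIT1 rose by 2.70 (SE 0.45, limma adjusted p = 0.0321). USP18, which removes ISG15 from proteins and dampens interferon signalling, had 7.98 and 8.82 with siHOXA11-AS, against 6.89 and 7.08 on the control arrays. It rose by 1.41 (SE 0.27, limma adjusted p = 0.0463). On the array titled shNC at 48 h, IFIT1 and USP18 had 16.77 and 11.71, above both siHOXA11-AS values. IFIT2, OASL and CMPK2, further antiviral genes, differed by 0.96, 0.86 and 0.84 (log2) at 24 h. At 48 h their differences were 1.91, 1.22 and 2.35, with limma's adjusted p of 0.0563, 0.0763 and 0.0644.

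MX1, the antiviral dynamin-like GTPase, had 11.71 and 16.52 with siHOXA11-AS, against 13.01 and 13.65 on the control arrays. It was thus lower at 24 h and higher at 48 h. IFI6 and IFI44L were also 2-fold lower at 24 h, at −1.23 and −1.01, and 2-fold higher at 48 h, at 3.04 and 2.32. RIGI, the RNA sensor RIG-I, had 8.75 and 10.23 with siHOXA11-AS, against 7.69 and 9.07 on the control arrays (mean difference 1.11, limma adjusted p = 0.0639). MYD88, the adaptor of Toll-like receptors, had differences of 1.29 and 1.18, but 0.24 against the array titled siNC at 48 h. Of the 15 RNA sensors, adaptors and interferons measured, RIGI and MYD88 were 2-fold higher at both times and none was 2-fold lower, where 1.44% and 0.672% of all genes were. ADAR, which edits double-stranded RNA, had −1.35 and −1.18, but 0.53 against the array titled siNC.

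**Figure D4:**
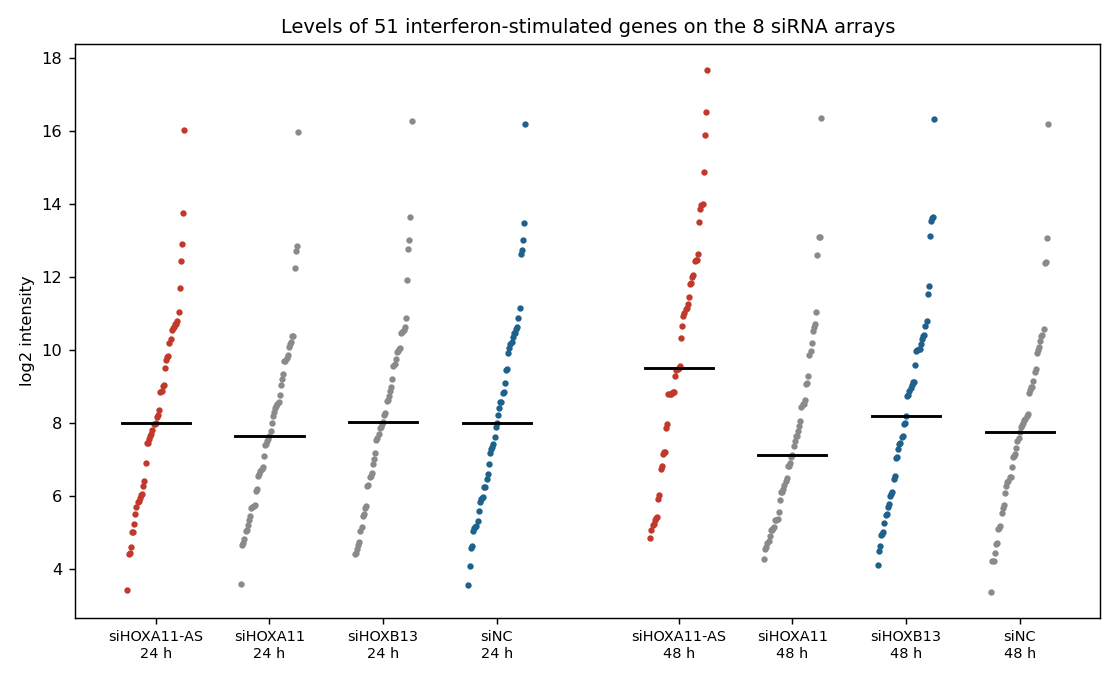
Log2 intensity of the 51 interferon-stimulated genes measured on each of the 8 siRNA arrays, with siHOXA11-AS in red, the arrays taken as control in blue and the others in grey. Points are genes in rank order and bars are medians, at 9.50 for siHOXA11-AS at 48 h and at most 8.19 on the other 7 arrays.

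The promoters of IFIT1 and MX1 are shown because both genes carried large 48 h differences and both windows hold the interferon-stimulated response element, the sequence bound by the interferon-activated factor ISGF3. The motif was searched as GAAANNGAAA on either strand, from 250 bases before to 50 after each gene's start, in RefSeq's GRCh38.p14. Of the 40 interferon-stimulated genes measured that had a promoter in the table, 27 held it (67.5%), against 3.65% of all promoters and 2.93% of those of the genes kept. Among the genes 2-fold different at both times, 11 of 190 higher (5.79%) and 0 of 36 lower genes held it, as did 2 of the 45 that were higher whichever 48 h array served as control. Capitals mark the matches in chr10:89392487-89392549 (IFIT1, plus strand) and chr21:41420549-41420598 (MX1, plus strand). A match is a description of sequence and not a measured site.
IFIT1: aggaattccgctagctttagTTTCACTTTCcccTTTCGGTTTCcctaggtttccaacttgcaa
MX1: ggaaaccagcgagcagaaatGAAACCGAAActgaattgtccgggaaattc

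The chemokine genes CXCL1, CXCL3 and CXCL8 were at least 2-fold higher at both times whichever 48 h array served as control. At 24 h, however, CXCL3 had 6.07 with siHOXA11-AS, 6.24 with siHOXB13 and 5.01 with siNC, and limma did not call it (adjusted p = 0.056). Of the 18 NF-κB target and feedback genes measured, 11 were higher and 2 lower at both times, where 41.6% and 24.5% of all genes were. CXCL1, CXCL8, CXCL3 and TNFAIP3 were 2-fold higher at both times, where 1.44% of all genes were. The list's median was 0.35 at 24 h and 0.59 at 48 h, beside 0.11 and 0.10 for all genes. Against the array titled siNC at 48 h the median was 0.30, beside 0.07 for all genes. CXCL1, which attracts neutrophils through CXCR2, had 10.68 and 10.55 with siHOXA11-AS, against 8.78 and 8.41 on the control arrays, and the other 6 siRNA arrays reached 9.70. It rose by 2.02 (SE 0.25, limma adjusted p = 0.0161). CXCL8, interleukin-8, had 11.64 and 10.69 with siHOXA11-AS, against 10.45 and 8.91 on the control arrays, and rose by 1.48 (SE 0.26, limma adjusted p = 0.0374). CXCL8 was also lower at 48 h than at 24 h on all 4 siRNAs as titled, so its siHOXA11-AS value at 48 h lay below that of siHOXA11 at 24 h. On the array titled shNC at 48 h, CXCL1 and CXCL8 had 12.06 and 15.26, above both siHOXA11-AS values. TNFAIP3, the feedback inhibitor A20, had differences of 1.69 and 1.44, but −0.07 against the array titled siNC at 48 h.

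Of the 22 TGF-β and SMAD pathway genes measured, 14 were higher and 1 lower at both times, beside 41.6% and 24.5% of all genes. Of the 22, limma called 3 higher, beside 0.881% of all genes. The list had medians of 0.41 and 0.85, and 0.34 at 48 h against the array titled siNC. ID1, an inhibitor of basic helix-loop-helix factors and a target of BMP signalling, had 11.78 and 12.28 with siHOXA11-AS, against 9.57 and 8.63 on the control arrays. It rose by 2.93 (SE 0.34, limma adjusted p = 0.0161), while its difference from the array titled siNC at 48 h was 1.11. At 24 h ID1 had 11.49 with siHOXB13, near its siHOXA11-AS value, and the control array was its lowest of the 4 siRNA arrays at both times. ID2, its relative, had 9.39 and 10.96 with siHOXA11-AS, against 8.16 and 9.10 on the control arrays, and the ligand gene TGFB3 had 7.08 and 8.10 with siHOXA11-AS, against 5.60 and 6.56 on the control arrays. Both rose (limma adjusted p = 0.0338 for ID2 and 0.0295 for TGFB3). The signal transducer SMAD2 had differences of 1.30 and 1.17 (limma adjusted p = 0.0534), but 0.45 against the array titled siNC at 48 h. Of the 15 YAP and TEAD genes measured, 14 were higher at both times, again beside 41.6% of all genes, with medians of 0.67 and 0.55, but 0.19 against the array titled siNC at 48 h. CCN1, a matricellular YAP target, and YAP1 itself rose by 1.75 and 1.36 (limma adjusted p = 0.0211 and 0.0405), but had 0.43 and 0.61 against the array titled siNC at 48 h, which ends the 2-fold call.

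Of the 19 cholesterol synthesis genes measured, 12 were higher and 2 lower at both times, beside 41.6% and 24.5% of all genes, with medians of 0.39 at 24 h and 0.94 at 48 h, and 0.60 against the array titled siNC. HMGCS1, which makes HMG-CoA, had 10.70 and 11.49 with siHOXA11-AS, against 9.24 and 9.15 on the control arrays, and rose by 1.90 (SE 0.28, limma adjusted p = 0.0241). NSDHL, a later enzyme that removes a methyl group from sterols, went the other way with 9.04 and 10.02 with siHOXA11-AS, against 10.90 and 11.24 on the control arrays, and fell by 1.54 (SE 0.27, limma adjusted p = 0.0349). Against the array titled siNC at 48 h, HMGCS1 had 1.80 and NSDHL −0.81. MSMO1 and CYP51A1, between them in the pathway, had 2.05 and 2.03 at 48 h but 0.73 and 0.69 at 24 h. Of the 10 fatty acid synthesis genes, 9 were higher at both times, beside the same 41.6%, with medians of 0.55 and 0.97. Against the array titled siNC at 48 h the median was 0.40. FASN, fatty acid synthase, had 12.06 and 12.48 with siHOXA11-AS, against 10.81 and 10.86 on the control arrays, and rose by 1.44 (limma adjusted p = 0.0351). At 48 h FASN had 0.95 against the array titled siNC, which is under 2-fold. The control array was its lowest of the 4 siRNA arrays at both times.

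**Figure D5:**
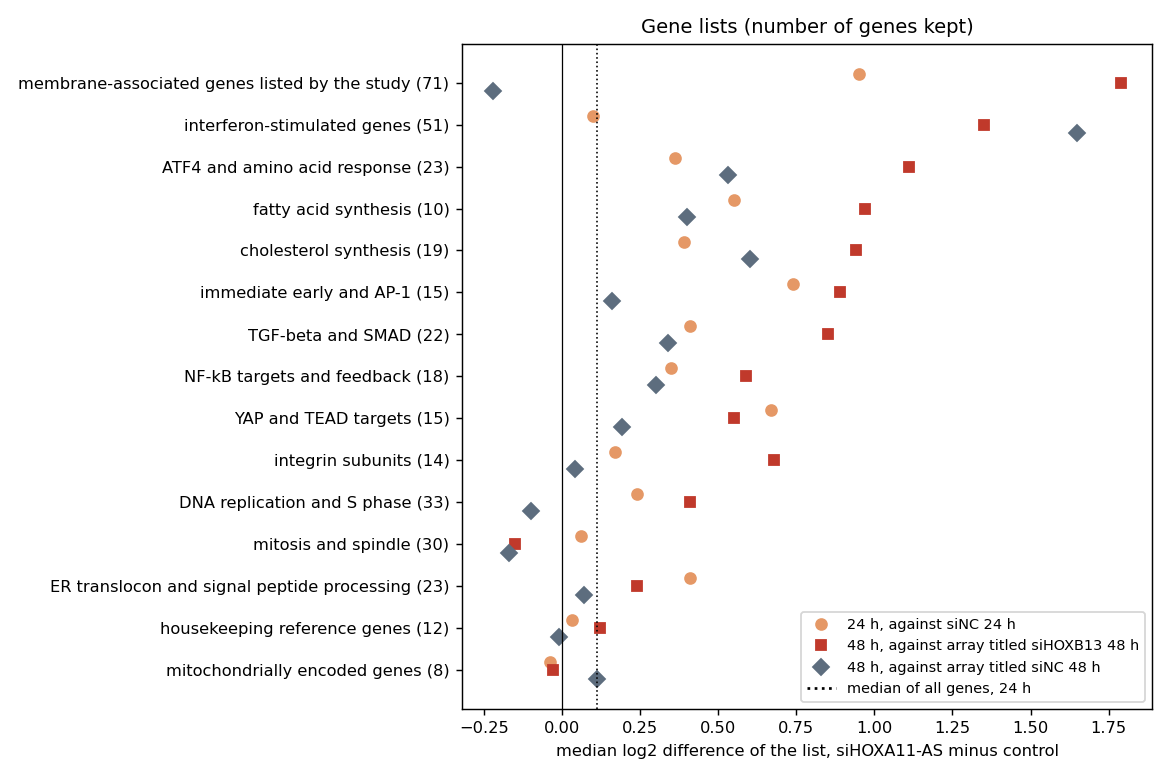
Median log2 difference of 15 gene lists, siHOXA11-AS minus control, at 24 h against siNC (circles), at 48 h against the array titled siHOXB13 (squares) and at 48 h against the array titled siNC (diamonds), with the number of genes measured in brackets. The study's membrane-associated genes had 1.79 against the array titled siHOXB13 and −0.22 against the array titled siNC, whereas interferon-stimulated genes had 1.35 and 1.65.

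No ATF4, immediate early or mitosis gene of the lists was 2-fold different in one direction at both times, where 1.44% of all genes were 2-fold higher and 0.672% lower. Their counts below stand beside 41.6% of all genes higher and 24.5% lower at both times. Of the 23 ATF4 and amino acid response genes, 18 were higher at both times, with medians of 0.36 and 1.11 and 0.53 against the array titled siNC at 48 h. The amino acid transporter SLC7A5 had 0.79 and 2.00, the serine synthesis gene PSAT1 0.65 and 1.24, and none of the list was called by limma. Of the 15 immediate early and AP-1 genes, 13 were higher at both times with medians of 0.74 and 0.89, but 0.16 against the array titled siNC. MYC, the growth-promoting transcription factor, had 0.94 and 1.87, but 0.16 against the array titled siNC. Of the 30 mitosis and spindle genes, 8 were higher and 12 lower at both times, and the median was 0.06 at 24 h, which turned negative after median centring and after quantile normalization, and −0.15 at 48 h. Cyclin A2 (CCNA2) had 12.85 and 11.82 with siHOXA11-AS, against 13.73 and 13.86 on the control arrays (mean difference −1.46, limma adjusted p = 0.0617), and it was below all other 6 siRNA arrays at both times. The kinase CDK1 had −0.49 and −1.04 (adjusted p = 0.147).

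Cell cycle inhibitors and apoptosis genes held members of either sign. CDKN1B, the inhibitor p27, had 9.07 and 8.90 with siHOXA11-AS, against 7.71 and 7.87 on the control arrays (mean difference 1.20, limma adjusted p = 0.059). It was 0.49 above the array titled siNC at 48 h. CYCS, cytochrome c, rose by 1.96 (adjusted p = 0.0203), but was 0.48 above the array titled siNC at 48 h. XIAP, an inhibitor of caspases, fell by 1.57 (limma adjusted p = 0.0329), with −0.50 against the array titled siNC, and APAF1, the apoptosome scaffold, had −1.10 and −1.48, with −0.28 against that array. The prostate genes STEAP2, a metalloreductase, and TMPRSS2, a membrane-bound serine protease, were 2-fold higher at both times against either control. They were the 2 of 14 prostate identity genes to be so, where 0.357% of all genes were. Of the 14, 8 were higher and 0 lower at both times, beside 41.6% and 24.5% of all genes. The list's median was 0.27 at each time. STEAP2 had 8.79 and 8.94 with siHOXA11-AS, against 7.73 and 7.20 on the control arrays (limma adjusted p = 0.0499), and TMPRSS2 had 8.75 and 9.90 with siHOXA11-AS, against 7.44 and 8.68 on the control arrays (adjusted p = 0.0502).

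Genes of adhesion and invasion that were also assayed outside the arrays in PC3 cells came next. Of the 8 above the level filter, 4 were higher and 2 lower at both times, beside 41.6% and 24.5% of all genes, and none was called by limma or was 2-fold different at both times. E-cadherin (CDH1) had 11.73 and 11.81 with siHOXA11-AS, against 10.56 and 11.35 on the control arrays, but 13.40 on the array titled siNC at 48 h. Its sign at 48 h therefore turned with the control, at 0.47 and −1.58, and the mean difference of 0.82 did not pass the test (limma adjusted p = 0.141). ITGAV, the αv integrin chain, had differences of 1.05 and 0.88, and −0.54 against the array titled siNC. CCR2, the receptor of CCL2, and MMP3, a matrix protease, had mean differences of −0.47 and −0.31 (limma adjusted p = 0.319 and 0.525), at levels of 5.65 or less. ITGB1, the β1 integrin chain, had 0.32 and −0.21, and ITGA5 and ITGB5 were 2-fold higher at 48 h only, at 1.13 and 1.06. CCL2, IBSP and ITGB3 were below the level filter.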

How the data were processed

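The authors used Affymetrix Expression Console, per the submitters' processing notes, and deposited 1 linear intensity per probe set and array. Its version, the summary method and any normalization were not given in the sources used here. Log2 values had been assumed when the tests were chosen, so log2 of the deposited intensity was taken first. Of 138745 probe sets, 36176 carried 1 gene symbol in the platform annotation, 1119 several and 101450 were unnamed here. Genes took the values of their brightest probe set, and the brighter 16808 of 33616 by mean over the 11 arrays were kept. Differences were paired by time. limma 3.58.1 in R 4.3.3 used time and treatment as terms on the 4 arrays, with eBayes and Benjamini-Hochberg adjustment at 0.05. On simulated data for this comparison, over 16808 genes, it recovered 100% of 200 genes changed by 2 and 100% of 200 changed by 4 on the log2 scale, with 23 and 16 false calls. The simulated noise was normal with the variances that limma itself had fitted, and each change was the same at both times. This setting favours recovery, so it cannot show how limma does with less regular errors or with effects that change with time. Smaller changes, such as 1 at the 2-fold threshold, were not simulated, so recovery at those sizes is not known. The number of arrays limits the precision.

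Members, arrays and the 48 gene lists were chosen with earlier results of these data known. Named genes were the 15 highest and 15 lowest by the smaller of both differences, up to 5 per list of one sign, list members 2-fold different in opposite directions, and genes the study measured in PC3 cells. The t-test named in the methods was an alternative. Other steps used Python 3.11.15. Gene ontology analysis was not repeated.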

Additional observations from a re-analysis of the deposited data

Results flagged for a closer look

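In 3 interferon-stimulated genes, the difference between siHOXA11-AS and the control array was at least 2-fold lower at 24 h and at least 2-fold higher at 48 h. The log2 differences were −1.30 and 2.87 for MX1, −1.23 and 3.04 for IFI6, and −1.01 and 2.32 for IFI44L. The change between the times was not tested, since each time has 1 array. Against the array titled siNC at 48 h, the 48 h differences were 6.52, 4.41 and 5.16.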

How the results depend on the processing

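Against the array titled siNC at 48 h, 88 genes were 2-fold higher and 45 lower at both times, and limma called 0 and 0. Against the mean of both candidate arrays, 135 were higher and 62 lower, and limma called 263 and 108. Requiring 2-fold against each candidate left 60 and 39, and the 24 h arrays alone gave 649 and 303; these settings were chosen after seeing the data. Median centring gave 151 higher and 182 lower genes and 491 and 558 limma calls, so the split between directions turned. All probe sets without names gave 285 lower, and 1 and 0 limma calls. Averaging the probe sets of a gene gave 285 and 131 calls, and an intensity trend 534 and 214. Over all 8 siRNA arrays, limma called 0 and 0 with labels as deposited (474 and 198 at an unadjusted p under 0.05) and 12 and 4 with the labels exchanged. The methods' t-test called 0 and 0 after Benjamini-Hochberg adjustment and 1076 and 414 at an unadjusted p under 0.05. With siNC at 24 h as control for both times, the HOXA11-AS mean difference was −0.10, and limma was not run there because both differences would share an array. Against the array titled siNC at 48 h, the mean differences of CDH1 and ITGB4 turned to −0.21 and −0.26, and that of ITGB1 turned to −0.075 after median centring. Among the genes picked by the naming rule above, no other turned the sign of its mean over both times, though single 48 h differences did. Markers named outside that rule, such as PTPRC and CD3E, were not part of this check. Of 96 list medians, 17 turned sign against the array titled siNC at 48 h and 10 after median centring. The cause of these changes was not tested. With 1 array per condition no array could be left out within a group, and no replicate numbers are shared. No paired analysis was possible because the labels give 1 sample per condition, other than the pairing by time used throughout. Genes near the background level of log2 3.26 to 3.30, and TRAM1 near the top of the scale, are measured less well.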
